A study of Mus musculus with 12 samples.

Results

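The data describe the messenger RNA of 7 amino acid transporter genes, Slc7a5, Slc3a2, Slc1a5, Slc7a1, Slc7a6, Slc38a1 and Slc38a2, in cytotoxic T lymphocytes (CTL) under 4 conditions. They were chosen by name as transporters of activated T cells and not by a rule on their values, but with earlier results of these data known. All 7 were among the 11022 genes of the expression table. The 12 cultures, 3 in each group, came from P14 mice, whose CD8 T cells carry 1 transgenic T cell receptor (TCR) against the gp33-41 peptide of a viral glycoprotein. The mice were female and 9 to 13 weeks old, and 3 mice gave the replicates. In every group the cells had first been activated for 48 h with peptide, interleukin 2 and interleukin 12, were then grown in interleukin 2 at 20 ng/mL, and at day 7 were rested for 1 h. Unstimulated CTL were left without peptide. The TCR group received gp33-41 at 100 ng/mL for 4 h. The PI3Kdi group received the same peptide with 10 µM IC87114, which blocks the lipid kinase PI3K p110δ, and the MEKi group received it with 2 µM PD184252, which blocks the kinases MEK1/2 upstream of ERK1/2. The unstimulated cells were therefore already effector T cells and not resting naïve cells.

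T cells that grow and make protein import amino acids through membrane carriers, and antigen receptor signals raise the amounts of several of them. The protein of Slc7a5 (LAT1) carries large neutral amino acids such as leucine, but reaches the cell surface only when joined to the protein of Slc3a2, the heavy chain of CD98. Slc1a5 (ASCT2) carries glutamine and other neutral amino acids, Slc7a1 (CAT-1) carries arginine and lysine, Slc7a6 is another light chain that joins Slc3a2 and exchanges cationic for neutral amino acids, and Slc38a1 and Slc38a2 import small neutral amino acids together with sodium. Import of leucine and glutamine feeds the kinase complex mTORC1, while the transcription factors MYC and ATF4 are known to act on transporter genes.

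On the mouse build GRCm38 (mm10), Slc7a5 lies on chromosome 8 from 121881150 to 121907694 and Slc3a2 on chromosome 19 from 8706882 to 8723369, both on the minus strand. Slc1a5 lies on chromosome 7 from 16781340 to 16798274 on the plus strand. Slc7a1 lies on chromosome 5 from 148327410 to 148399904 on the minus strand, and Slc7a6 on chromosome 8 from 106168857 to 106198706 on the plus strand. Slc38a1 and Slc38a2 are neighbours on the minus strand of chromosome 15, from 96571418 to 96642913 and from 96687392 to 96699730. No exon of the 7 overlapped an exon of another gene. Of the stretches of 100 bases in their transcripts, 1.48% of those of Slc3a2 and 1.87% of those of Slc38a1 also occurred in a transcript of another gene, and none did for the other 5.

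Of the 7 genes, 4 had a promoter sequence in the RefSeq table (GRCm38.p6), namely Slc3a2, Slc7a1, Slc7a6 and Slc38a2. The bases before the annotated start are shown for Slc7a1 and Slc38a2, which were higher with the MEK inhibitor than with peptide alone, and for Slc7a6, for which no change passed the test among the 3 peptide groups on the deposited scale. Capitals mark the letters CANNTG, the general form of the E-box that MYC and many other factors can bind. The window of Slc3a2 runs over exon bases and is not shown. The sequences are given 5′ to 3′ on the strand of the gene.
Slc7a1, chr5:148399905-148400154, minus strand: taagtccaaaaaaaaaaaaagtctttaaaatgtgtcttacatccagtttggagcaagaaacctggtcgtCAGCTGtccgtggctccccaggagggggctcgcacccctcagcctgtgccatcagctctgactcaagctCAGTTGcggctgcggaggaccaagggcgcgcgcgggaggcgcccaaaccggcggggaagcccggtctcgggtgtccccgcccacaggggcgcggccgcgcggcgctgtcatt
Slc38a2, chr15:96699731-96699978, minus strand: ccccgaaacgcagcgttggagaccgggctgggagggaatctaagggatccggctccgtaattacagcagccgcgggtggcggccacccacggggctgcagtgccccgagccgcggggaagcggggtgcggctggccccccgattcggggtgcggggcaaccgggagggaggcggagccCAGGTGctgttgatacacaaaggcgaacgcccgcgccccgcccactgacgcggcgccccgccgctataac
Slc7a6, chr8:106168604-106168853, plus strand: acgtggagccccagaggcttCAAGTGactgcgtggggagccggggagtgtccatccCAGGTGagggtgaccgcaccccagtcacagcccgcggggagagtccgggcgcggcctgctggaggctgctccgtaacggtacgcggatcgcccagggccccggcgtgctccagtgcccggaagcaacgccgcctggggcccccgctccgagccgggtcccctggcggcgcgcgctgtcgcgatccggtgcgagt
CANNTG occurred 2 times in the window of Slc7a1, 1 time in that of Slc38a2 and 2 times in that of Slc7a6. Some copy of it was present in 55.5% of the 7967 promoters of the same table that belong to measured genes, so its presence does not set these windows apart. CACGTG, the canonical E-box and a special case of CANNTG, was present in 8.76% of those promoters, and TGATGNAA, a form of the C/EBP-ATF element that ATF4 can bind, in 2.01%. Both strands were searched, and neither was found in the 3 windows shown. The windows were rich in G and C, at 62.4% for Slc7a1, 72.0% for Slc38a2 and 74.0% for Slc7a6, where the median of the measured genes was 60.0%.

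The values are FPKM, fragments normalised to exon length and library size, scaled between samples by the authors with TMM, which sets the typical gene to be equal between libraries. Fold changes are on the log2(FPKM + 0.1) scale, and adjusted p-values come from limma over all 11022 genes with Benjamini-Hochberg adjustment. A gene was called where its adjusted p was under 0.05 and its change exceeded 2-fold, and genes that passed on p alone are named as such. All 8 CTL marker genes were in the table, with Cd8a between 212.73 and 430.34 FPKM and Cd3e between 106.43 and 131.52 FPKM. Of 8 myeloid markers 1 was in it, Cd68 at 4.88 to 8.44 FPKM, and Csf1r was not. Of the CD4 and NK markers 3 of 5 were in it, and of the stromal and erythroid markers 2 of 7. Some of these differed between groups: summed FPKM of the CD4 and NK markers was 111.2 to 116.8 in the TCR group and 73.9 to 82.4 with the MEK inhibitor, and that of the stromal and erythroid markers 11.3 to 13.5 in the TCR group and 6.2 to 7.7 with the PI3K inhibitor. Nearly all of the first sum was Eomes (108.9 FPKM in the TCR group and 75.4 with the MEK inhibitor), a transcription factor that CTL themselves express. Klrb1c was at or below 6.23 FPKM and Cd4 at or below 3.65 FPKM throughout, and nearly all of the second sum was Pecam1. Their part in the transporter values was not tested. Low FPKM values move in steps of single reads, which resolved poorly here, and from them the depth was estimated at about 7720000 to 13160000 reads per sample. Each transporter then rested on about 940 reads or more in every sample, with a counting error of at most 3.3%.

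In unstimulated CTL the genes already spanned the upper part of the transcriptome. Slc1a5 at 122.6 FPKM and Slc7a5 at 120.7 FPKM stood within the top 5.4% of genes by mean level, followed by Slc3a2 at 79.2, Slc38a2 at 50.0, Slc38a1 at 40.6, Slc7a1 at 29.8 and Slc7a6 at 21.0 FPKM. Only the samples of the first 2 overlapped, and each later gene lay below the one before it in all 3 cultures. With peptide, Slc7a5, Slc1a5 and Slc3a2 led, and Slc7a1, Slc38a2 and Slc38a1 overlapped one another around 55 to 56 FPKM. Under PI3K inhibition Slc1a5 moved ahead of Slc7a5 without overlap, and under MEK inhibition Slc7a5 led without overlap and Slc7a1 stood clear of Slc38a2. Slc7a6 was lowest in all 4 groups.

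**Figure D1:**
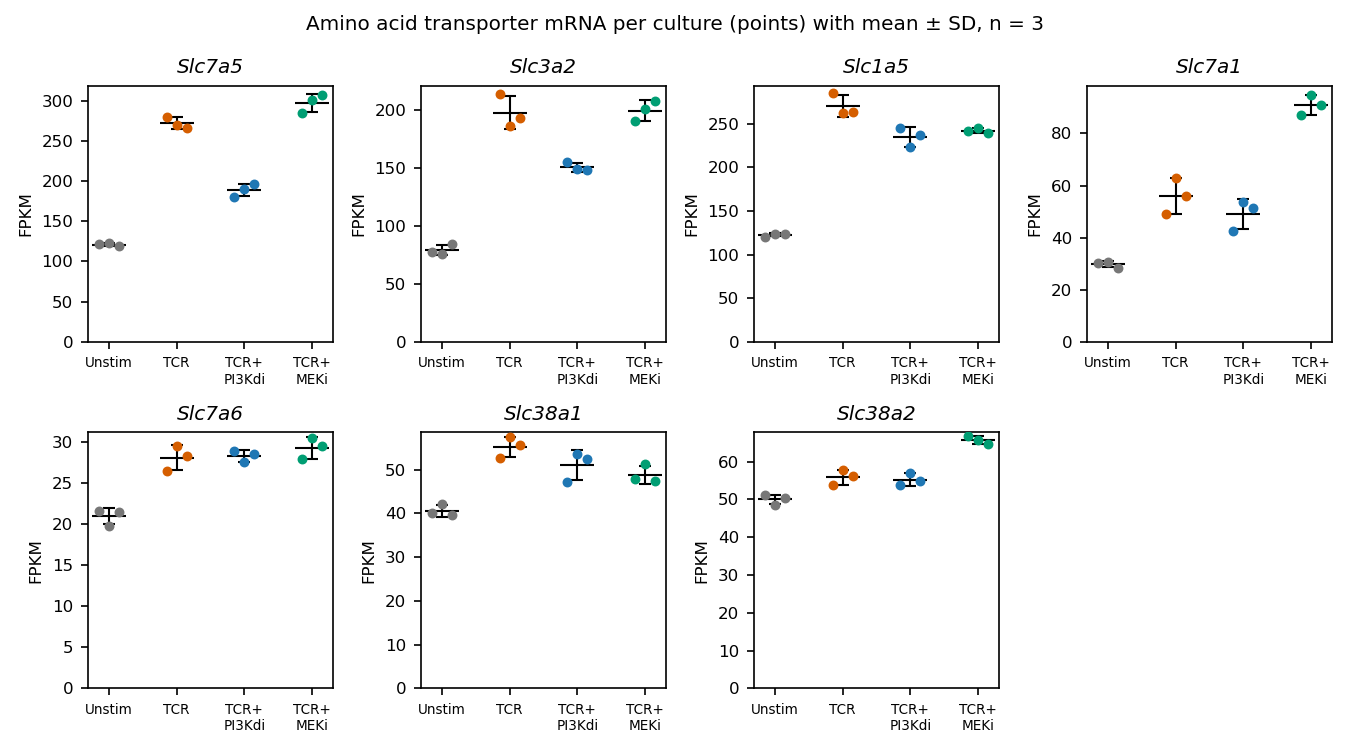
FPKM (vertical axes, from 0) of the 7 transporter genes in unstimulated CTL (Unstim), with peptide (TCR), and with peptide plus the PI3K p110δ inhibitor (TCR+PI3Kdi) or the MEK inhibitor (TCR+MEKi). Points are the 3 cultures of a group and bars the mean ± SD; the PI3Kdi points of Slc7a5 and Slc3a2 fall below all TCR points, and the MEKi points of Slc7a1 and Slc38a2 lie above all others.

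The first comparison asks how 4 h of antigen receptor stimulation changed the transporters in CTL. All 7 rose on the deposited scale. The genes for the CD98 complex of LAT1 and for the glutamine carrier more than doubled, the arginine carrier came close to doubling, and the other light chain and both sodium-coupled carriers rose by far less. Slc7a5 was at 121, 122 and 119 FPKM in the unstimulated cultures and at 280.0, 270.1 and 265 FPKM after peptide. Its log2 fold change was 1.17 (SE 0.05, limma adjusted p = 2.45e-11). The peptide cultures lay far above the others, more than 2-fold, with little spread inside either group.

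Slc3a2, the partner chain, was at 77.7, 75.7 and 84.2 FPKM without and at 213, 186 and 193 FPKM with peptide. It had the largest change of the 7, with a log2 fold change of 1.32 (SE 0.06, limma adjusted p = 6.71e-11). Slc1a5 went from 121, 124 and 123 FPKM to 285, 262 and 264 FPKM, a log2 fold change of 1.14 (SE 0.05, limma adjusted p = 4.17e-11). For both genes the lowest peptide culture was above every unstimulated one. These 3 genes were called, so that 3 of 7 transporters were called higher, where 8.87% of all genes were.

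Slc7a1 was at 30.4, 30.7 and 28.4 FPKM in unstimulated CTL and at 49.0, 62.8 and 56.2 FPKM with peptide. The log2 fold change was 0.90 (SE 0.09, limma adjusted p = 4.88e-07), inside the 2-fold limit. Peptide cultures of this gene were more spread, relative to their mean, than those of the other 6 (replicate 1 lowest), but none reached down to the unstimulated range.

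Slc7a6, the other light chain, was at 21.6, 19.8 and 21.5 FPKM without and at 26.5, 29.5 and 28.2 FPKM with peptide, a log2 fold change of 0.42 (SE 0.06, limma adjusted p = 2.41e-05). Slc38a1 went from 40.1, 42.1 and 39.6 FPKM to 52.7, 57.4 and 55.55 FPKM, a log2 fold change of 0.44 (SE 0.06, limma adjusted p = 1.13e-05). Slc38a2 went from 51.2, 48.6 and 50.3 FPKM to 53.9, 57.9 and 56.1 FPKM, a log2 fold change of 0.16 (SE 0.05, limma adjusted p = 0.00883). The groups did not overlap in any of the 3, though for Slc38a2 the gap between them was narrow. By adjusted p alone 7 of 7 were higher (33.6% of all genes), and 7 of 7 did not overlap (34.7% of all genes).

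The size of these changes rests on the scaling. When each sample was rescaled to the same FPKM sum (the TPM scale), the median over all genes moved to a log2 change of -0.42, from -0.01 on the deposited scale. The log2 fold change was then 0.76 for Slc7a5, 0.90 for Slc3a2, 0.73 for Slc1a5 and 0.49 for Slc7a1, all still higher by adjusted p but within 2-fold. It was 0.01 for Slc7a6 and 0.03 for Slc38a1 (limma adjusted p = 0.933 and 0.739), and it turned to -0.25 for Slc38a2 (limma adjusted p = 0.00193). All 7 stayed above the median gene on either scale. After quantile normalisation Slc3a2 alone passed 2-fold, with a log2 fold change of 1.11, and Slc38a2 was at 0.04 (limma adjusted p = 0.508). On the TPM scale 22.2% of all called genes were higher, against 44.4% on the deposited scale. Since cells were measured in bulk, more transcript per cell and more cells that hold the transcript cannot be told apart.

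**Figure D2:**
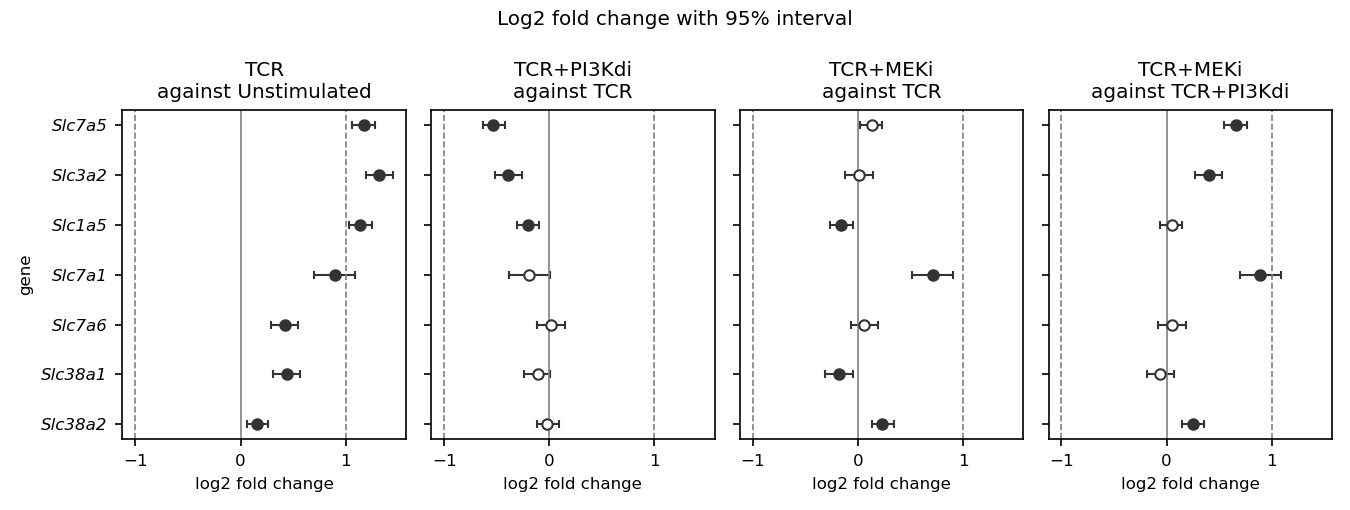
Log2 fold change (horizontal axes) of each transporter gene (rows) in 4 comparisons, with the 95% interval from limma; filled points passed an adjusted p of 0.05, open points did not, and dashed lines mark 2-fold. With peptide all 7 lie right of 0. Under PI3K inhibition the intervals of the first 3 lie wholly left of 0 and those of the others include 0. Under MEK inhibition Slc7a1 stands furthest right, at 0.71.

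The second comparison asks how the levels with peptide changed when PI3K p110δ was inhibited. No group received an inhibitor without peptide. An effect on the peptide response and one on the level before peptide therefore cannot be told apart, for either inhibitor. Against peptide alone, the mRNAs of both CD98 chains and of Slc1a5 fell and the other 4 did not pass the test, and none of the 7 was called. Slc7a5 was at 180.3, 189.8 and 196 FPKM with the inhibitor, a log2 fold change of -0.53 against TCR (SE 0.05, limma adjusted p = 4.89e-06). Slc3a2 was at 155, 148 and 148 FPKM, a log2 fold change of -0.39 (SE 0.06, limma adjusted p = 0.00034). All inhibitor cultures of both genes were below all cultures with peptide alone and above all unstimulated ones.

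Slc1a5 was at 245, 223 and 237 FPKM with the PI3K inhibitor, a log2 fold change of -0.20 (SE 0.05, limma adjusted p = 0.00868). This gap was smaller, again without overlap, and it was not seen under the TPM or the quantile scaling, where the log2 fold change was -0.02 both times. By adjusted p alone 3 of 7 transporters were lower, where 12.8% of all genes were, and 0 of 7 were higher, where 12.7% were. The same 3 did not overlap with TCR (18.6% of all genes were lower without overlap). Called at more than 2-fold were 1.38% of all genes lower and 0.499% higher, so that 26.6% of called genes were higher, against 56.8% on the TPM scale.

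Slc7a1 was at 42.6, 53.5 and 51.3 FPKM with the PI3K inhibitor, overlapping the TCR group, with a log2 fold change of -0.19 and a 95% interval from -0.38 to 0.01 (limma adjusted p = 0.146). Replicate 1 was the lowest of its group here as it was with peptide alone, and without TCR replicate 1 the log2 fold change was -0.28 (limma adjusted p = 0.0394). For Slc7a6 the cultures were at 28.95, 27.6 and 28.5 FPKM and the interval ran from -0.12 to 0.15. For Slc38a1 they were at 47.1, 53.6 and 52.3 FPKM, with an interval from -0.24 to 0.01. For Slc38a2 they were at 53.7, 57.1 and 54.9 FPKM, with an interval from -0.12 to 0.09. Taken as unpaired groups all 4 genes overlapped with TCR, and the intervals leave room only for changes well inside 2-fold. Between same-numbered cultures, Slc7a1, Slc38a1 and Slc38a2 were lower with the inhibitor in 3 of 3 pairs and Slc7a6 in 1 of 3, and with replicate number as a block the limma adjusted p was 0.0602 for Slc7a1, 0.105 for Slc38a1, 0.821 for Slc38a2 and 0.878 for Slc7a6. On the TPM scale, where the median gene moved by 0.20, Slc7a6 was at 0.20 (limma adjusted p = 0.0374), and Slc38a1 and Slc38a2 changed sign, to 0.07 and 0.16.

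Against unstimulated CTL, 7 of 7 transporters were still higher by adjusted p with the PI3K inhibitor present (31.7% of all genes) and without overlap (33.4%), and 0 of 7 were called (7.16% called higher, which is 49.1% of called genes, and 33.2% on the TPM scale). The log2 fold changes were 0.64 for Slc7a5, 0.93 for Slc3a2, 0.94 for Slc1a5, 0.71 for Slc7a1, 0.43 for Slc7a6, 0.33 for Slc38a1 and 0.14 for Slc38a2. Slc38a2 was the weakest, with a limma adjusted p of 0.0194 that rose to 0.0751 without unstimulated replicate 2 and to 0.0726 without PI3Kdi replicate 2, and its log2 fold change on the TPM scale was -0.09 (limma adjusted p = 0.239). On the TPM scale, where the median gene was at -0.22, Slc38a1 did not pass either, at 0.10 (limma adjusted p = 0.287). The remaining genes still passed there as higher. Under quantile scaling Slc38a2 alone did not pass, at 0.10 (limma adjusted p = 0.13). Taking the difference between the TCR and unstimulated means on the deposited scale as 100%, the inhibitor cultures held 45.0% ± 5.21 (SD, n = 3) of it for Slc7a5, 60.2% ± 3.35 for Slc3a2 and 76.0% ± 7.45 for Slc1a5. For Slc7a1 the value was 73.7% ± 22.1, with replicate 1 at 48.7% and the others at 90.5% and 81.9%. The share of this difference was lowest for Slc7a5, a description that was not tested.

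The third comparison asks the same of MEK1/2. Against peptide alone, Slc7a1 and Slc38a2 rose further, Slc1a5 and Slc38a1 fell slightly, and the remaining 3 did not pass the test. None of the 7 was called, where 0.98% of all genes were called higher and 2.51% lower (28.1% of called genes were higher, and 63.3% on the TPM scale). Slc7a1 was at 87.1, 94.8 and 91.0 FPKM with the MEK inhibitor, a log2 fold change of 0.71 against TCR (SE 0.09, limma adjusted p = 3.65e-05). Every MEKi culture was above every other culture in the study for this gene, and the 3 values were tighter than those of the TCR group.

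Slc38a2 was at 66.8, 65.7 and 64.8 FPKM with the MEK inhibitor, a log2 fold change of 0.23 (SE 0.05, limma adjusted p = 0.00179), again above all other cultures. These rises passed the adjusted p under all 3 scalings, with TPM-scale and quantile values of 0.97 and 0.80 for Slc7a1 and 0.50 and 0.31 for Slc38a2. The median gene was at 0.27 on the TPM scale. In FPKM on the deposited scale, the MEKi cultures of Slc7a1 stood at 233.9% ± 14.8 (SD, n = 3) of the difference between the TCR and unstimulated means, which was 26.15 FPKM. On the log2 scale the step from TCR to MEKi for this gene, 0.71, was not larger than that from unstimulated to TCR, 0.90.

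Slc1a5 was at 242, 246 and 239 FPKM with the MEK inhibitor, a log2 fold change of -0.16 (SE 0.05, limma adjusted p = 0.024). Slc38a1 was at 47.8, 51.2 and 47.35 FPKM, a log2 fold change of -0.18 (SE 0.06, limma adjusted p = 0.0308). Neither overlapped with TCR, but both falls turned on the scaling and on single libraries. On the TPM scale they became 0.10 and 0.08, and after quantile normalisation 0.03 and -0.10. Slc1a5 no longer passed without TCR replicate 1 (limma adjusted p = 0.0949), MEKi replicate 1 (0.0584) or MEKi replicate 3 (0.0794). Slc38a1 no longer passed without TCR replicate 2 (limma adjusted p = 0.105), TCR replicate 3 (0.0757), MEKi replicate 1 (0.0896) or MEKi replicate 3 (0.107). Without the intensity trend in limma, the adjusted p was 0.0513 for Slc1a5 and 0.059 for Slc38a1.

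Slc7a5 was at 285, 300.5 and 307 FPKM with the MEK inhibitor, above all cultures with peptide alone, with a log2 fold change of 0.13 and a 95% interval from 0.02 to 0.23 (limma adjusted p = 0.0537). It passed without TCR replicate 1 (limma adjusted p = 0.0483) or MEKi replicate 1 (0.0408) and on the TPM scale, where it was 0.39 (limma adjusted p = 3.92e-05). Under quantile scaling it also passed, at 0.28 (limma adjusted p = 0.00074). Slc3a2 was at 189.9, 200.2 and 208 FPKM, inside the TCR range, with a log2 fold change of 0.01 and an interval from -0.12 to 0.14. Slc7a6 was at 27.9, 30.5 and 29.5 FPKM, overlapping TCR, with an interval from -0.07 to 0.19. By adjusted p alone 2 of 7 transporters were higher (18.9% of all genes) and 2 of 7 lower (18.2%), so the count itself was near the background. Without overlap, 3 were higher (24.6% of all genes) and 2 lower (24.1%). On the TPM scale the median gene was at 0.27, and Slc3a2 at 0.28 and Slc7a6 at 0.32 were near it. Under quantile scaling the median gene was at 0.02, Slc3a2 at 0.16 (limma adjusted p = 0.0146) and Slc7a6 at 0.10 (limma adjusted p = 0.228).

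Against unstimulated CTL the MEKi cultures were higher for 7 of 7 transporters by adjusted p (28.9% of all genes) and without overlap (32.7%). Called higher were 3 of 7 (6.95% of all genes, which is 51.8% of called genes, and 39.6% on the TPM scale), namely Slc7a1 with a log2 fold change of 1.61, Slc3a2 with 1.33 and Slc7a5 with 1.30. The same 3 were more than 2-fold higher on the TPM scale, at 1.46, 1.18 and 1.15. Slc1a5 was just inside 2-fold at 0.98, Slc7a6 was at 0.48, Slc38a2 at 0.39 and Slc38a1 at 0.26. On the TPM scale, where the median gene was at -0.15, Slc38a1 alone did not pass, at 0.11 (limma adjusted p = 0.221).

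The inhibitors were also set directly against each other, which equals the difference between their effects because both effects are taken against the same TCR cultures. With the MEK inhibitor, 4 of 7 transporters were higher than with the PI3K inhibitor by adjusted p (14.5% of all genes) and without overlap (20.9%), and none was called (1.39% called higher and 1.71% lower). Slc7a1 differed most, by a log2 of 0.89 (SE 0.09, limma adjusted p = 4.66e-06). Slc7a5 differed by 0.66 (SE 0.05, limma adjusted p = 2.4e-07), Slc3a2 by 0.40 (SE 0.06, limma adjusted p = 0.000163) and Slc38a2 by 0.25 (SE 0.05, limma adjusted p = 0.00127). All 4 kept this direction and passed under both other scalings (TPM and quantile). On the deposited scale the PI3Kdi cultures of Slc7a5 and Slc3a2 lay below all TCR cultures, and the MEKi cultures of Slc7a5, Slc7a1 and Slc38a2 lay above them. How the difference divides between the inhibitors depends on the scaling: on the TPM scale Slc7a5 was at -0.34 with PI3Kdi and 0.39 with MEKi against TCR, and Slc3a2 at -0.21 and 0.28. Slc1a5, Slc7a6 and Slc38a1 overlapped between the inhibitors, with 95% intervals from -0.06 to 0.15, from -0.08 to 0.18 and from -0.19 to 0.07.

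Summed over the 7 genes, the level was 464.0 ± 1.72 FPKM in unstimulated CTL, 934.9 ± 22.4 with peptide, 757.7 ± 8.64 in the PI3Kdi group and 973.7 ± 23.5 in the MEKi group (SD, n = 3 each). As a share of the FPKM of all genes, which does not depend on the scaling between samples, this was 0.0967%, 0.146%, 0.135% and 0.183%. The sums of the PI3Kdi and TCR groups differed more than their shares did. Within the sum, Slc7a5 made up 26.0% ± 0.47 in unstimulated CTL, 29.1% ± 0.15 with peptide, 24.9% ± 0.79 in the PI3Kdi group and 30.5% ± 0.51 in the MEKi group. The share of Slc1a5 was 26.4% in unstimulated CTL, 28.9% with peptide, 31.0% in the PI3Kdi group and 24.9% in the MEKi group. Slc7a1 made up 6.4%, 6.0%, 6.5% and 9.3% in the same order.

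**Figure D3:**
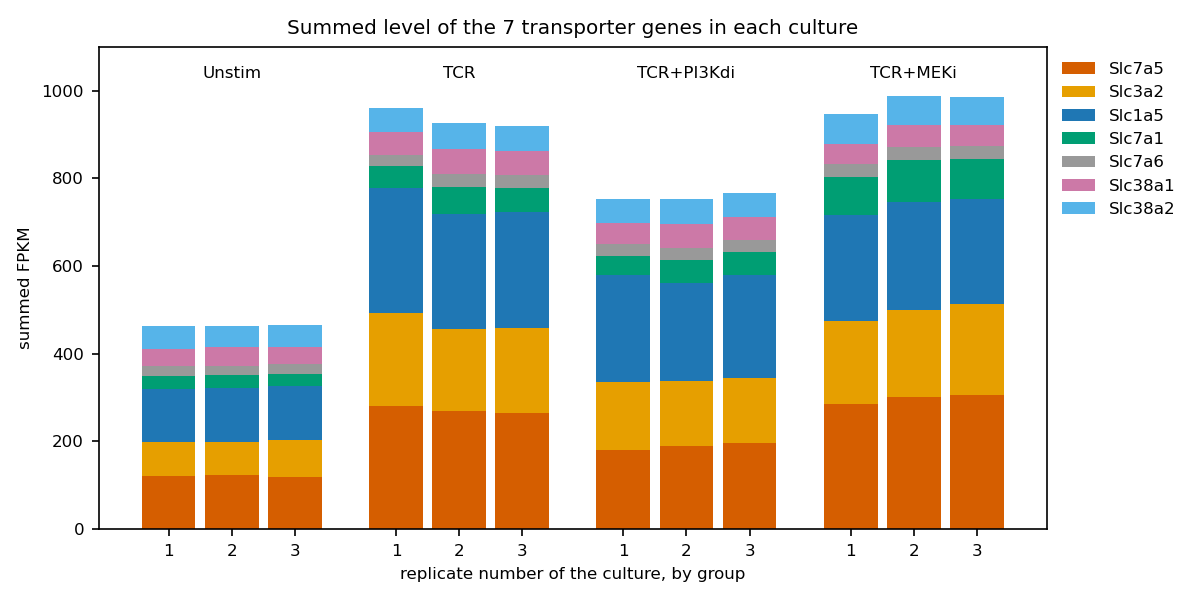
FPKM of the 7 transporter genes stacked to their sum (vertical axis, from 0) in each of the 12 cultures, ordered by group and replicate number. Slc7a5, Slc3a2 and Slc1a5 make up most of every bar, and the Slc7a1 layer is thickest in the MEKi cultures.

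Because the proteins of Slc3a2 and Slc7a5 work as a pair, the ratio of their FPKM was taken within each culture, where the scaling between samples cancels. It was 0.642, 0.618 and 0.709 in unstimulated CTL and 0.762, 0.687 and 0.728 with peptide. In the PI3Kdi group it was 0.86, 0.782 and 0.755, and in the MEKi group 0.667, 0.666 and 0.677. The PI3Kdi values lay above all unstimulated and MEKi values and overlapped with TCR. The log2 ratio differed by 0.28 for PI3Kdi against unstimulated, by -0.25 for MEKi against PI3Kdi and by -0.11 for MEKi against TCR, each without overlap. An exact two-sided permutation test of 3 against 3 cultures cannot give a p below 0.1, the value it gave for these 3 (0.2 adjusted over 6 comparisons), so it could not pass and says nothing for or against a difference.

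**Figure D4:**
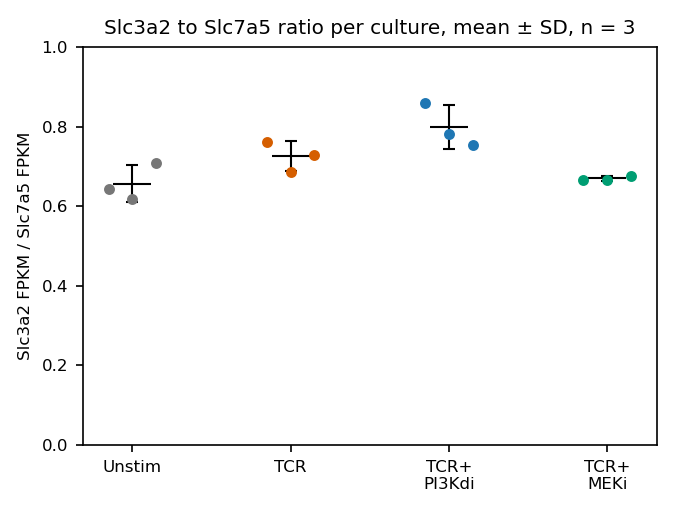
Ratio of Slc3a2 to Slc7a5 FPKM (vertical axis, from 0) in each culture, with the mean ± SD per group (n = 3). The PI3Kdi cultures are highest, between 0.755 and 0.86, and the MEKi cultures lie close together, between 0.666 and 0.677.

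Among the other amino acid transporters, 17 of 49 listed genes were in the table. With peptide 5 were called higher and 3 lower (8.87% and 11.1% of all genes; 4 of the 17 in all with a pseudocount of 1), and 6 of the 17 did not pass by p, with a median log2 fold change of 0.09 (-0.01 over all genes). Slc1a4, a carrier of alanine, serine and cysteine and a relative of Slc1a5, was at 3.31, 3.42 and 3.36 FPKM without and at 38.77, 35.98 and 35.82 FPKM with peptide, a log2 fold change of 3.41. Slc6a9, a glycine transporter, rose from a mean of 1.77 to 12.7 FPKM (log2 2.78). Slc7a3, a relative of Slc7a1, was at 4.48 and 16.1 FPKM (log2 1.82), and Slc7a11, the cystine carrier that also joins Slc3a2, was at 0.153 and 1.07 FPKM (log2 2.22). These 4 genes had larger fold changes than any of the 7, and with peptide Slc1a4 stood above Slc7a6 in mean level while the other 3 stood below all of the 7. Slc1a2 was also called, between 0.0167 and 0.19 FPKM, values near the floor of the measurement. The 3 called lower were Slc36a1, a lysosomal amino acid carrier (log2 -1.59), Slc43a2, a leucine carrier of another family (log2 -1.12), and Slc38a8 (log2 -1.09), which was under 0.56 FPKM in every culture.

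With the PI3K inhibitor, Slc1a4 was at 24.12, 26.59 and 23.72 FPKM, a log2 fold change of -0.57 against TCR (limma adjusted p = 4.12e-05). Slc6a9 was at -0.84, Slc7a3 at -0.62 and Slc7a11 at -0.66 (limma adjusted p = 0.00041, 0.00238 and 0.015). In all 4 the inhibitor cultures lay below the TCR cultures. Of the 17 genes, 5 fell and 3 rose by adjusted p (12.8% and 12.7% of all genes), and none was called. With the MEK inhibitor Slc1a4 was at 34.37, 39.05 and 37.56 FPKM, overlapping TCR, and of the 17 genes 3 rose and 1 fell by adjusted p (18.9% and 18.2% of all genes), the latter being Slc1a2. Set against the PI3K inhibitor, Slc6a9 was called higher with the MEK inhibitor, by a log2 of 1.16 (limma adjusted p = 1.7e-05), but not without PI3Kdi replicate 1.

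**Figure D5:**
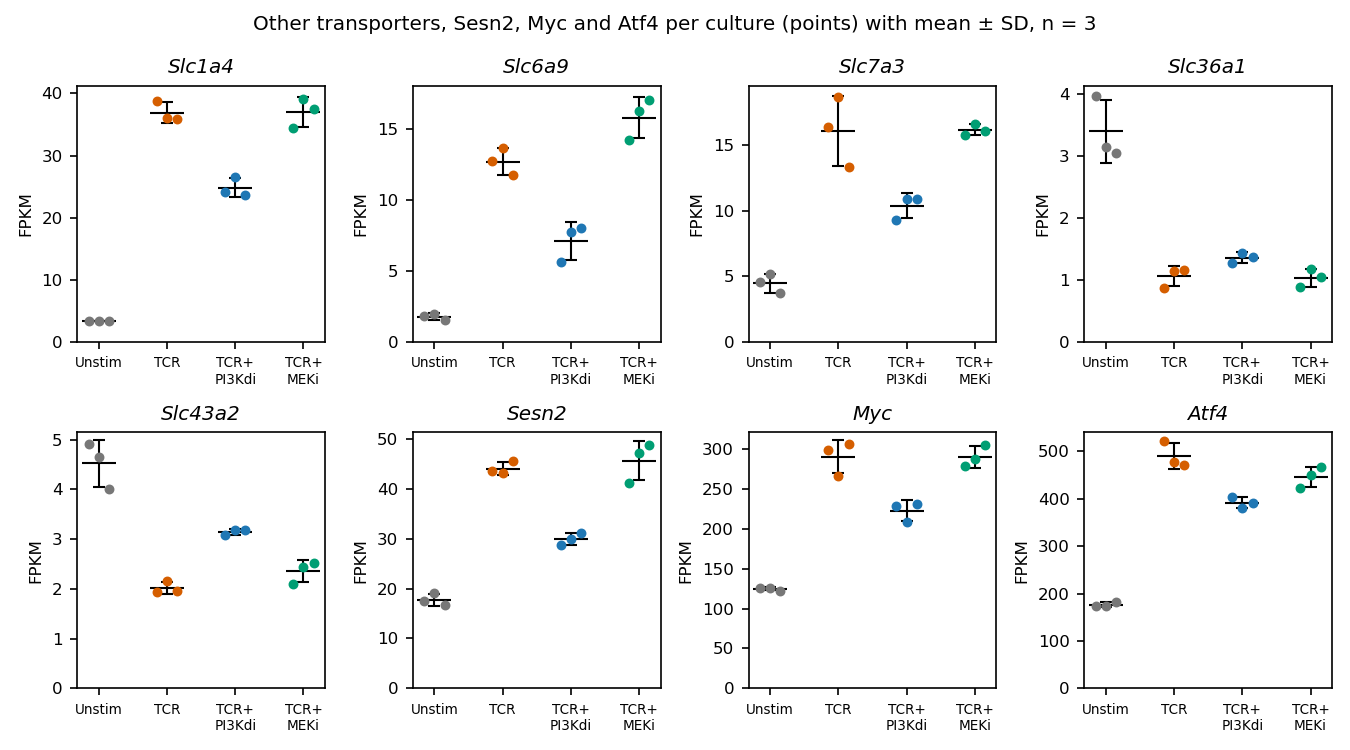
FPKM (vertical axes, from 0) per culture of 5 other amino acid transporters, Sesn2, Myc and Atf4, by group, with mean ± SD (n = 3). Slc1a4, Slc6a9, Slc7a3, Sesn2, Myc and Atf4 are high with peptide and lower with the PI3K inhibitor, while Slc36a1 and Slc43a2 are highest in unstimulated CTL.

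Of 10 listed regulators of transporter genes, all in the table, 6 were called higher with peptide and 1 lower (8.87% and 11.1% of all genes). On the TPM scale 4 in all were called, where 664 of all genes were called higher and 2330 lower. Myc was at 125.94, 125.46 and 122.4 FPKM without and at 298.28, 266.75 and 306.17 FPKM with peptide (log2 1.22, limma adjusted p = 1.97e-10). Atf4, whose protein drives the amino acid starvation response, was at 173.13, 173.92 and 182.53 FPKM without and at 522.54, 478.78 and 471.31 FPKM with peptide (log2 1.47, limma adjusted p = 7.38e-12). Atf3 (log2 4.76) and Ddit3 (log2 1.84), which respond to cell stress, also rose, and Mycn fell (log2 -1.47). Against TCR, 7 of the 10 were lower and 1 higher by adjusted p in the PI3Kdi group (12.8% and 12.7% of all genes). The 1 higher was Hif1a (log2 0.73, limma adjusted p = 1.09e-06). In the MEKi group 5 were higher and 0 lower (18.9% and 18.2% of all genes). With the PI3K inhibitor Myc was at -0.38 and Atf4 at -0.32 against TCR (limma adjusted p = 0.000461 and 0.000783). These were -0.20 and -0.14 on the TPM scale and -0.21 and -0.18 under quantile scaling, all passing. With the MEK inhibitor Myc was at 0.00 and Atf4 at -0.14 against TCR (limma adjusted p = 0.992 and 0.0717). Under the other scalings Myc was higher with the MEK inhibitor, at 0.26 on the TPM scale and 0.16 under quantile scaling (limma adjusted p = 0.00166 and 0.031), and Atf4 changed sign, to 0.13 and 0.06 (limma adjusted p = 0.026 and 0.284). On the deposited scale the Myc mRNA held 59.3% ± 7.83 of its TCR difference in the PI3Kdi group and 100.0% ± 8.31 in the MEKi group.

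Genes for enzymes that use the imported amino acids were also measured, 25 of 28 listed. With peptide 4 were called higher and 1 lower (8.87% and 11.1% of all genes). By adjusted p 16 rose and 7 fell (33.6% and 34.9% of all genes), with a median log2 fold change of 0.54. Bcat1, which transaminates branched-chain amino acids, went from 7.23 to 37.5 FPKM (log2 2.36), and Gls2, a glutaminase, from 1.47 to 7.94 FPKM (log2 2.37). Bckdk, which restrains branched-chain amino acid breakdown, was called lower (log2 -1.04). None of the 25 was called with either inhibitor against TCR, and by adjusted p 11 fell and 1 rose in the PI3Kdi group (12.8% and 12.7% of all genes), while 4 fell and 7 rose in the MEKi group (18.2% and 18.9%). Of 35 measured genes of mTORC1 and amino acid sensing (42 listed), 3 were called higher and 5 lower with peptide, where 8.87% and 11.1% of all genes were, so these counts are near the background. Sesn2, a leucine sensor, rose from 17.7 to 44.1 FPKM (log2 1.31) and Eif4ebp1, an mTORC1 target that holds back translation, from 58.1 to 171.6 FPKM (log2 1.56). The 5 called lower were Gatsl3 (log2 -2.05), Rragb (log2 -1.53), Gatsl2 (log2 -1.28), Sesn3 (log2 -1.26) and Depdc5 (log2 -1.08). Rragd, a GTPase of the sensing complex, was called higher with peptide and lower with each inhibitor against TCR, all at or below 1.62 FPKM, and its call with the PI3K inhibitor was lost without PI3Kdi replicate 3. Of 8 other nutrient uptake genes 2 were called higher with peptide (8.87% of all genes), the nucleoside carrier Slc29a1 (log2 2.00) and the folate carrier Slc19a1 (log2 1.33). Against TCR none of the 8 was called with either inhibitor. By adjusted p 3 fell and 2 rose in the PI3Kdi group (12.8% and 12.7% of all genes). In the MEKi group 4 fell and 1 rose (18.2% and 18.9%), with Slc29a1 at -0.78 (limma adjusted p = 1.65e-07).

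For each transporter the genes with the most similar pattern over the 12 cultures were sought among 7488 genes with a mean of at least 5 FPKM, by the root mean square difference of centred log2(FPKM + 0.1). This is a description, and the samples share libraries and scaling. Slc7a5 was closest to Crim1 (0.068), Sesn2 (0.075) and Mib2 (0.077). Slc3a2 was closest to Cyb5r1 (0.066), Myc (0.079) and Sqstm1 (0.08). Its partner Slc7a5 was at rank 18 for Slc3a2, and Slc3a2 at rank 14 for Slc7a5 (0.129), each the nearest of the other members. Slc7a1 had no neighbour nearer than 0.119, the distance of Clic4, Pogk and Ripk2, so its pattern was shared least closely among the 7. Slc38a1 had the nearest neighbour of any, Zfp828 at 0.029, followed by Ivns1abp and Srsf5. For Slc1a5 the nearest named gene was Sh2d2a (0.072), behind 1110049F12Rik and 9430008C03Rik. Senp6, Cdk13 and Wbp4 were nearest to Slc7a6, and Ywhag, Ncoa3 and Snd1 to Slc38a2.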

How the data were processed

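Messenger RNA of 12 CTL cultures, 3 per group, was sequenced from a stranded, poly(A)-selected library (paired ends). The authors aligned reads to mm10 with STAR 2.4.2a, counted them per RefSeq gene with Subread 1.5.0, dropped low-count genes by filterByExpr and applied TMM. The authors then computed FPKM with the edgeR RPKM function over the summed, non-overlapping exon length, and deposited these to 2 decimals for 11022 genes, with replicates kept apart. Genes outside that table were not analysed here. Whether counting used strand is not given in the sources used here. TMM assumes that most genes do not change, so the TPM scale was tried as well.

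From the deposited FPKM, log2(FPKM + 0.1) of all 12 samples was fitted with limma 3.58.1 in R 4.3.3 (1 mean per group, eBayes with an intensity trend, no term for replicate). The 6 contrasts were adjusted by Benjamini-Hochberg over all genes, and called genes had an adjusted p under 0.05 and more than a 2-fold change. The pseudocount of 0.1 shrinks changes of low genes. The members, gene lists and tests were chosen with earlier results of these data known. All 7 members are reported. Of the other lists only a part of the called genes is named, together with Myc, Atf4 and a few markers. List results of either inhibitor against unstimulated CTL are left out. One further marker list is not reported here. For each member the 3 most similar genes were named. Depth is not in the table, and an estimate from steps between low values had 45.2% to 61.1% of 60 to 100 values per sample within 0.15 of a whole number of reads (30% by chance), so no count test was run. Counting errors cover sampling of reads only.

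Replicates are biological replicates from 3 mice, but whether equal numbers mark the same mouse is not given in the sources used here. Deviations of same-numbered samples from their group means, over 9899 genes, correlated by 0.239 to 0.451 between PI3Kdi and TCR and by 0.122 to 0.182 between MEKi and TCR, and all pairs also passed 0.1 between the inhibitor groups and between MEKi and unstimulated. They did not between TCR and unstimulated (0.004 to 0.153) or between PI3Kdi and unstimulated (-0.062 to 0.114). Replicate number was therefore a block in an alternative fit. Other alternatives were a pseudocount of 1 or 0.01, a minimum mean FPKM of 1, the TPM scale, quantile normalisation, a fit without the trend, adjusted p alone, the compared groups alone, and leaving out each replicate. Scripts were tested on simulated data. Python 3.11.15, NumPy 2.4.6, SciPy 1.17.1, pandas 2.3.3 and matplotlib 3.10.9 were used, with positions from GENCODE M21 and promoters from RefSeq. All value columns were assigned to samples.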

Additional observations from a re-analysis of the deposited data

Results flagged for a closer look

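For 4 of the 7 transporters the effects of the inhibitors, each taken against the same TCR cultures, differed by a direct test of the difference (limma, adjusted over all genes). The MEK inhibitor effect minus the PI3K inhibitor effect was a log2 of 0.89 for Slc7a1 (limma adjusted p = 4.66e-06), 0.66 for Slc7a5 (limma adjusted p = 2.4e-07), 0.40 for Slc3a2 (limma adjusted p = 0.000163) and 0.25 for Slc38a2 (limma adjusted p = 0.00127). For these 4 the MEKi and PI3Kdi cultures did not overlap (20.9% of all genes were higher without overlap). The MEKi culture was therefore bound to be higher in 3 of 3 same-numbered pairs, which adds nothing further. By this test 14.5% of all genes were higher with the MEK inhibitor.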

How the results depend on the processing

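Of 588 values of member log2 fold changes under alternatives, 544 kept their direction and side of the threshold. A pseudocount of 1 lowered the genes called in the comparisons TCR against unstimulated, PI3Kdi against TCR, MEKi against TCR, MEKi against PI3Kdi, PI3Kdi against unstimulated and MEKi against unstimulated to 1405, 90, 201, 150, 979 and 873, from 2202, 207, 385, 341, 1608 and 1478, as the larger pseudocount shrinks fold changes of low genes. By adjusted p alone 7559, 2818, 4090, 3185, 6887 and 6571 genes passed, and 7, 3, 4, 4, 7 and 7 of the transporters, from 3, 0, 0, 0, 0 and 3. The TPM scale called 578 genes for MEKi against TCR. With peptide 0 transporters were called on the TPM scale and 1 under quantile scaling.

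On the TPM scale the log2 fold change reversed to -0.25 for Slc38a2 with peptide, to 0.07 for Slc38a1 and 0.16 for Slc38a2 with PI3Kdi against TCR, to 0.10 for Slc1a5 and 0.08 for Slc38a1 with MEKi against TCR, to 0.02 for Slc38a1 with MEKi against PI3Kdi, and to -0.09 for Slc38a2 with PI3Kdi against unstimulated. Quantile normalisation reversed Slc38a2 with PI3Kdi against TCR (0.06) and Slc1a5 with MEKi against TCR (0.03). Leaving out 1 replicate reversed values near 0: with PI3Kdi against TCR, Slc7a6 (-0.03 to 0.05) and Slc38a2 (-0.04 to 0.01, with 0.00 without PI3Kdi replicate 1), with MEKi against TCR, Slc3a2 (-0.03 to 0.07, with -0.03 without TCR replicate 2 and -0.02 without MEKi replicate 3), and the log2 Slc3a2 to Slc7a5 ratio of MEKi against unstimulated (-0.01 to 0.09). It changed no count of transporters called, which stayed at 3 or 0. Apart from the scaling itself the cause was not tested.

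With the replicate block, 2206, 209, 389, 349, 1610 and 1478 genes and the same number of transporters, 3, 0, 0, 0, 0 and 3, were called in the order above, and no transporter changed its side of the threshold. Precision is limited by 3 cultures per group, and depth is known only as an estimate.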
